A study of Mus musculus with 12 samples.

Results

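The genes described here encode potassium channels of the heart. They are Kcnd2, Kcnd3, Kcnip2, Kcna5, Kcnq1, Kcnh2, Kcnj2, Kcnj3 and Kcnj11, 9 of 18193 genes that the platform annotation names alone on at least 1 probe set. A probe set is a group of short probes on the array that reads one transcript. All probe sets that name one of the 9 genes and no other were taken, which gave 21 of 34945 such probe sets. None of the 9 genes encodes a sodium channel, and the sodium channel genes on the array are given as a separate list. RNA from 12 hearts, 1 per mouse, was measured on Affymetrix mouse expression arrays. Tg R211A hearts (n = 3) and Tg S343D hearts (n = 3) carried a transgene for the human integrin-linked kinase ILK with that point mutation, over-expressed in the heart, and WT littermates (n = 6) carried none. The promoter that drives the transgenes is not given in the sources used here. All mice were of the C57BL/6 strain and 8 to 9 weeks old. They are labelled female, apart from 1 WT mouse labelled male.

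The hearts are named here by the numbers 1 to 12 that their labels give. Tg S343D hearts are numbers 2, 4 and 5 and Tg R211A hearts are numbers 7, 9 and 12. The WT mice carry 2 series of replicate numbers, hearts 1, 3 and 6 (the first set) and hearts 8, 10 and 11 (the second set), and no label ties a set to a line. Each line lies in one range of numbers, Tg S343D in 1 to 6 and Tg R211A in 7 to 12, and each range holds 3 WT hearts. A plain difference between the lines is therefore also one between the ranges. Some values are also given with the range as a block, or with hearts in 6 pairs of a transgenic and a WT heart from the same range. Such values rest on the WT hearts of each range, and they are given for some probe sets only. The 6 pairs were formed by the number in the title, although no label says that it pairs hearts. Heart 2, whose title holds no number, was paired with heart 1. The methods of the paper describe hybridizations of R211A genotypes with and without MI, whereas no label names surgery, and whether any heart was operated on cannot be told here.

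Potassium channels end the cardiac action potential and hold the resting membrane potential. In mouse ventricle a fast transient outward current, carried by the pore subunits that Kcnd2 and Kcnd3 encode together with the subunit encoded by Kcnip2, gives much of the early repolarization. Delayed rectifiers, among them those of Kcna5, Kcnq1 and Kcnh2, open later, and inward rectifiers of the Kcnj family set the resting potential (Kcnj2), answer vagal signals in atria and nodes (Kcnj3) or open when ATP is low (Kcnj11). Mouse atria and ventricles differ in several of these channels. For that reason the markers of both chambers are given before the channels.

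The transgene was visible in the Ilk probe set. WT hearts gave 601 ± 39.0 (SD, n = 6), against 3515 ± 434 (SD, n = 3) with S343D and 8799 ± 682 (SD, n = 3) with R211A. The deposited signal is linear and was scaled by the authors on each array, and the median signal of an array lay between 41.5 and 49.1. With so few arrays, every value has a wide error. Ventricular markers (Myl2, Myl3, Irx4 and Hey2) summed to 20227 to 22553 in Tg S343D hearts, 22966 to 25398 in Tg R211A hearts and 21761 to 26881 in WT hearts, so the lines did not overlap in this sum while both overlapped WT. The lines also did not overlap on 15% of all probe sets tested below. Myl2 and Myl3 made up nearly all of the sum, as Irx4 averaged 263 in Tg R211A and 245 in Tg S343D hearts and Hey2 was too low to be tested. The log2 difference of Tg R211A from Tg S343D was 0.16 for Myl2, 0.11 for Myl3, 0.10 for Irx4 and -0.16 for Hey2. Nothing in these bulk data separates fewer cells of a type from less RNA per cell.

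The signal of atrial markers differed widely among the 12 hearts. The summed signal of 5 atrial markers (Myl7 and Myl4, the atrial myosin light chains, with Sln, Nppa and Bmp10) differed 11.4-fold between the highest and the lowest heart. It lay between 9167 and 21056 in hearts 2, 3, 4, 7, 8 and 11 and between 1848 and 4142 in hearts 1, 5, 6, 9, 10 and 12, with no heart in between. Myl7, Myl4, Sln and Nppa each split the hearts in this way. Bmp10 did not, with 58.6, 66.3 and 53.8 in hearts 2, 7 and 8 and 70.7 and 60.3 in hearts 10 and 12. In each heart with a low sum, Nppa made up most of it, from 1570 of 1848 in heart 5 to 2237 of 4142 in heart 12. Myl7 ranged from 63.6 in heart 5 to 4910.5 in heart 7, and Sln, which encodes the calcium pump inhibitor sarcolipin, from 7.79 in heart 5 to 3682 in heart 4. The 6 hearts with many atrial markers comprised 1 of 3 Tg R211A, 2 of 3 Tg S343D and 3 of 6 WT hearts, so the split ran across the genotypes. The tissue label of all samples is heart, and 1 description, that of heart 1, names the left ventricle. No atrial marker passed the test in any comparison, and the SE of the log2 difference of Sln between Tg R211A and WT hearts was 1.67. The relation of each channel gene to these markers is given after the channels themselves.

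The comparisons asked whether channel transcripts differed between each ILK line and WT hearts, and between the lines. Signals were taken to log2 and tested with limma, whose adjusted p comes from the Benjamini-Hochberg method over all 22519 probe sets with a mean signal of at least 43.5, and a difference was called at an adjusted p under 0.05. Of the 21 channel probe sets, 16 lay above this limit, and the other 5 were 2 of the 4 for Kcnd3, 1 of the 4 for Kcnd2, 1 of the 4 for Kcnj3 and the single one for Kcnj2. Where a gene has several probe sets, its values are those of the brightest unless another is named. Levels of different channel probe sets were not compared, whereas the marker sums add signals of different probe sets and so weigh bright ones most. No channel gene passed the test in any of the 3 comparisons. The differences are therefore described with their intervals, and a difference that failed the test is not shown to be absent.

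**Figure D1:**
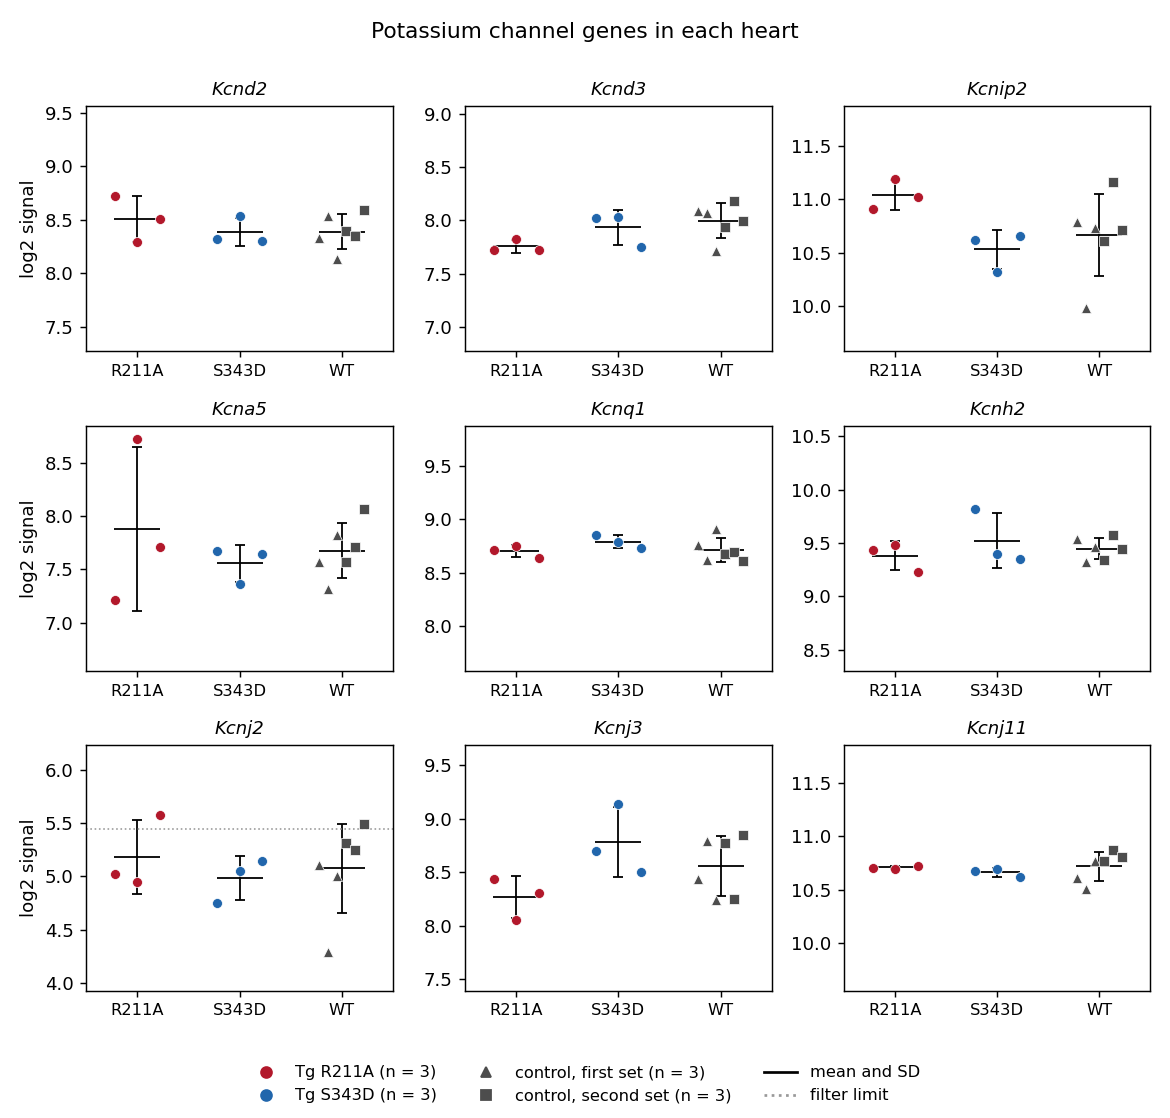
Log2 signal of the brightest probe set of each of the 9 channel genes in every heart, by genotype (R211A and S343D, n = 3 each, WT, named control in the key, n = 6, triangles for the first and squares for the second WT set). Each panel spans the same log2 range, horizontal bars are group means and whiskers are SD. Kcnip2 in WT ranged from 1011 to 2289 on the linear scale, the Kcnj2 probe set lay mostly below the dotted filter limit, and Kcna5 had 1 high Tg R211A heart.

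Among the genes of the transient outward current, Kcnip2 showed the largest differences. Kcnip2 encodes KChIP2, the calcium-binding subunit that brings Kv4 channels to the cell surface. Its brightest probe set (1436275_at) had signals of 1925, 2334 and 2075 in Tg R211A hearts. It had 1575, 1281 and 1609.6 in Tg S343D hearts. In WT hearts it had 1763, 1011 and 1704 in the first set and 1559.6, 2289 and 1684 in the second. The Tg R211A hearts lay above every Tg S343D heart but not above every WT heart, because WT heart 10 was close to the highest Tg R211A heart. The log2 difference from WT was 0.38 (95% interval -0.00 to 0.75, limma adjusted p = 0.667), and from Tg S343D it was 0.51 (0.07 to 0.94, adjusted p = 0.518). Tg S343D and WT differed by -0.13 (-0.51 to 0.24, adjusted p = 0.995). The summed ventricular markers, given above, were also higher in every Tg R211A than in every Tg S343D heart, and their part in the difference of Kcnip2 between the lines was not tested.

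A second Kcnip2 probe set (1425870_a_at) ran parallel to the first over the 12 hearts (r = 0.925). It had signals of 1129.8, 1335 and 1287 in Tg R211A hearts and 737, 704 and 912 in Tg S343D hearts. In WT hearts it had 862, 441 and 927 in the first set and 943, 1056 and 1036 in the second. Here the Tg R211A hearts lay above every other heart. The log2 difference from WT was 0.56 (SE 0.21, limma adjusted p = 0.541, exact permutation p = 0.0714), and from Tg S343D it was 0.68 (SE 0.24, adjusted p = 0.462). Heart 3, a WT heart of the first set, was the lowest of all 12 hearts on both probe sets. Without heart 3 the difference between the lines on this probe set passed the test (0.68, adjusted p = 0.0193), since the WT hearts share in the estimate of the spread, and the difference from WT was 0.37 (adjusted p = 0.226). On the brightest probe set the difference from WT was then 0.24 (adjusted p = 0.692). The third Kcnip2 probe set (1421783_a_at), with signals between 35.8 and 61.5, gave 0.26 against WT (adjusted p = 0.850) and correlated with the brightest one at r = 0.114.

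The difference of Kcnip2 from WT depended on which WT hearts were used. Against the second set, which shares the number range of Tg R211A hearts, the brightest probe set differed by 0.21 (adjusted p = 0.7995) and the second by 0.30 (adjusted p = 0.537). Against the first set the values were 0.54 (adjusted p = 0.412) and 0.82 (adjusted p = 0.291). With the range of heart numbers as a block the difference between the lines was 0.18 (adjusted p = 0.928) on the brightest probe set. On the second probe set it was 0.16 with all hearts in 6 pairs (limma adjusted p = 0.819), against 0.68 without pairs.

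Because Kcnip2 and Kcnj3 carried the widest differences between the lines, the 250 bases before their annotated starts are shown, from RefSeq on GRCm38.p6. Kcnip2 lies on the minus strand (chr19:45816064-45816313) and Kcnj3 on the plus strand (chr2:55435720-55435969), and both are written 5′ to 3′ toward the start. Capitals mark matches to the CCAAT motif, which reads ATTGG when it lies on the other strand, and to the GGGCGG motif.
Kcnip2: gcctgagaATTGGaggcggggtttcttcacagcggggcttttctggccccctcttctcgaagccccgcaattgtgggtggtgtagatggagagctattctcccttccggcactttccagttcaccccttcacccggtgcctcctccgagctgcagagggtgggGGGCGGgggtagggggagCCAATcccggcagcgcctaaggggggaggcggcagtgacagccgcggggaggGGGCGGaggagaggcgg
Kcnj3: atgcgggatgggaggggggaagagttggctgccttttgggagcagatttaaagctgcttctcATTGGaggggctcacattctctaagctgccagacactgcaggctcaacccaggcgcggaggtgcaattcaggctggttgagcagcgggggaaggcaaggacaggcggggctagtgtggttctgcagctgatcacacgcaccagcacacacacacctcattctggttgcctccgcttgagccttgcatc
In Kcnip2, GGGCGG began 87 and 17 bases and CCAAT 69 bases before the start, with a reverse CCAAT beginning 242 bases before it. Kcnj3 held 1 reverse CCAAT, beginning 188 bases before the start, and no GGGCGG. G and C made up 66.8% of the Kcnip2 stretch and 58.4% of that of Kcnj3.

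Sequences were given for 7 of the 9 genes, and 6 motifs were searched in them on both strands. The GC box, searched as GGGCGG, was found in 4 of 7 and in 32.7% of all 32851 promoter stretches of that length. CCAAT was found in 3 of 7 against 33.8% of all. The E-box, searched as CACGTG, stood only before Kcnj2 among the 7 (6.02% of all). The TATA box, searched as TATAAA (12.4% of all), the GATA site, searched as AGATAA (9.99%), and the heat shock element core, searched as GAANNTTC (6.69%), were found before none of the 7.

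The pore subunits of the transient outward current differed less. Kcnd2, which encodes Kv4.2, had signals of 423, 313 and 363 in Tg R211A hearts and 319, 372 and 315 in Tg S343D hearts, with a WT range of 279.9 to 385 and a median of 332. Groups overlapped, the log2 difference of Tg R211A from WT was 0.12 (-0.12 to 0.36, limma adjusted p = 0.889), and that of Tg S343D was -0.00 (-0.24 to 0.23, adjusted p = 0.999). Without heart 7 the difference in Tg R211A was 0.01. The other 2 tested Kcnd2 probe sets had the opposite sign in Tg R211A, at -0.09 and -0.12. Kcnd3, which encodes Kv4.3, had signals of 210.9, 228 and 211.2 in Tg R211A hearts and 261, 261 and 215 in Tg S343D hearts, with a WT range of 209 to 291 and a median of 262. All 3 Tg R211A hearts lay below the WT mean but within the WT range, owing to WT heart 6. The log2 difference was -0.24 (-0.46 to -0.02, adjusted p = 0.639), and the second tested Kcnd3 probe set gave -0.26 (adjusted p = 0.860). A Kcnd3 probe set below the filter (1447513_at) had 29.9, 26.9 and 40.4 in Tg R211A hearts and 41.4 to 55.2 in WT hearts. It lay below the filter and is outside the counts. With no filter its log2 difference of -0.55 had a limma adjusted p of 0.665, and its exact permutation p was 0.0119, the smallest that 84 splits allow and the smallest of any channel probe set in this comparison.

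Of the delayed rectifier genes, Kcna5 varied most between hearts. Kcna5 encodes Kv1.5, the pore of an ultrarapid current, and had signals of 148, 421 and 209 in Tg R211A hearts, 203, 164 and 199.9 in Tg S343D hearts and 159 to 268 in WT hearts, with a median of 199. Heart 9 was the highest and heart 7 the lowest of all 12, and both are Tg R211A. The log2 difference from WT was 0.20 (-0.31 to 0.72, limma adjusted p = 0.917), and without heart 9 it was -0.22 (adjusted p = 0.873), so its sign rested on that heart. Kcnq1, the pore of the slow delayed rectifier, varied least, with signals of 419, 430.3 and 399 in Tg R211A hearts, 461, 442 and 425 in Tg S343D hearts and 389.9 to 482 in WT hearts, with a median of 411. Its log2 differences were -0.01 (-0.17 to 0.15) and 0.08 (-0.08 to 0.24) from WT. Kcnh2, which encodes the ERG pore of the rapid delayed rectifier, had signals of 693, 714 and 601 in Tg R211A hearts, 902, 675 and 652 in Tg S343D hearts and 642 to 762 in WT hearts, with a median of 702. Heart 2 was above all other hearts for Kcnh2, while the groups overlapped and the log2 differences were -0.07 (-0.28 to 0.15) and 0.07 (-0.14 to 0.29), the latter being -0.07 without heart 2.

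Kcnj3 encodes GIRK1, a subunit of the acetylcholine-activated channel of atria and nodes. It had signals of 347, 265 and 316 in Tg R211A hearts and 416, 564 and 362 in Tg S343D hearts. In WT hearts it had 345, 442 and 303 in the first set and 437, 305 and 459.8 in the second. Every Tg R211A heart lay below every Tg S343D heart, and both groups overlapped the WT range. The log2 difference between the lines was -0.52 (-0.92 to -0.11, limma adjusted p = 0.472), with -0.29 (-0.64 to 0.06, adjusted p = 0.750) for Tg R211A and 0.23 (-0.12 to 0.58, adjusted p = 0.995) for Tg S343D against WT. Single hearts moved these values. Without heart 4 the lines differed by -0.34 and Tg S343D differed from WT by 0.05, and without heart 9 Tg R211A differed from WT by -0.18. With the range of heart numbers as a block the lines differed by -0.65 (adjusted p = 0.667). The other 2 tested Kcnj3 probe sets gave -0.13 and -0.24 between the lines, and on neither were the lines apart without overlap. With hearts in 6 pairs these differences became -0.22 (limma adjusted p = 0.663) and -0.56 (adjusted p = 0.228). Kcnj5, which encodes the partner subunit GIRK4 and is named outside the rule for listed genes, after its values were seen, had 384 ± 35.5 (SD, n = 3) in Tg R211A, 437 ± 111 (SD, n = 3) in Tg S343D and 398 ± 41.7 (SD, n = 6) in WT hearts.

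Kcnj11 encodes Kir6.2, the pore of the ATP-sensitive potassium channel. Its brightest probe set (1455417_at) had signals of 1667, 1662 and 1694 in Tg R211A hearts, 1638, 1661 and 1571 in Tg S343D hearts and 1459.7 to 1871 in WT hearts, with a median of 1744. The lines did not overlap here, but the log2 difference between them was only 0.05 (-0.13 to 0.22, adjusted p = 0.920) and turned to -0.14 with the range of heart numbers as a block. The second Kcnj11 probe set (1450515_at) had 487, 439.7 and 453 in Tg R211A hearts, 321, 352 and 417 in Tg S343D hearts and 302 to 451 in WT hearts, with a median of 393. It differed by 0.24 from WT (limma adjusted p = 0.667) and by 0.35 between the lines (adjusted p = 0.482). Against the WT hearts of its own number range Tg R211A differed by 0.13 (adjusted p = 0.847), and with hearts in 6 pairs the lines differed by 0.13 (adjusted p = 0.803). Without WT heart 3 the difference from all WT hearts was 0.17. In the fit with all hearts the brightest probe set differed from WT by -0.01 in Tg R211A (limma adjusted p = 0.989) and by -0.06 in Tg S343D (adjusted p = 0.995). The 2 probe sets of Kcnj11 thus disagreed in sign in Tg R211A against WT, and in size between the lines. Kcnj2, which encodes Kir2.1, a main subunit of the classic inward rectifier of ventricle, was measured by 1 probe set with signals between 19.6 and 47.8 in the 12 hearts. That lies around and below the filter limit of 43.5, and with no filter its log2 difference of 0.11 in Tg R211A had a limma adjusted p of 0.977. Exact permutation tests of the brightest probe set of all 9 genes, adjusted over the 9, gave no p under 0.571 for Tg R211A and none under 0.811 for Tg S343D against WT. Between the lines every such p was at least 0.3, and 3 hearts against 3 cannot give an unadjusted p below 0.1.

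**Figure D2:**
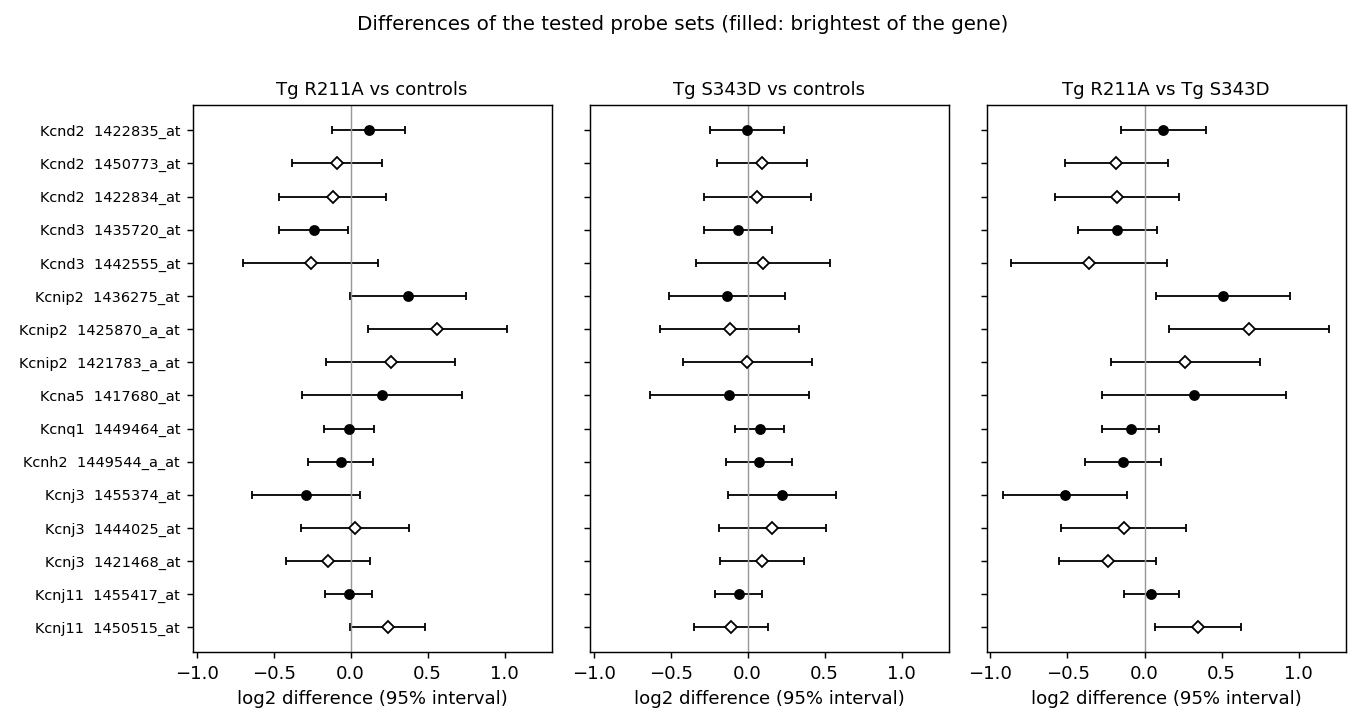
Log2 differences with 95% intervals from limma for the 16 tested channel probe sets (filled for the brightest of a gene, open for the others) in the 3 comparisons. Against WT the differences in Tg R211A ran from -0.29 to 0.56 and those in Tg S343D from -0.13 to 0.23, and between the lines Kcnip2 ranged up to 0.68 and Kcnj3 down to -0.52.

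In Tg R211A against WT hearts, 0 of 16 channel probe sets were called, where 0.204% of all 22519 tested probe sets were (46). At an unadjusted p under 0.05 there were 2 of 16 (12.5%), on Kcnip2 and Kcnd3, against 7.51% of all tested. Groups did not overlap on 1 of 16 (6.25%) against 4.07%. The median log2 difference was -0.01 over the 16, and -0.00 over all tested genes. In Tg S343D against WT hearts, 0 of 16 were called (0.00444% of all tested, 1 probe set), 0 had an unadjusted p under 0.05 (3.98% of all) and 0 did not overlap (2.03%). Between the lines, 0 of 16 were called (0.16% of all), 4 (25.0%) had an unadjusted p under 0.05 against 8.45% of all, and 5 (31.2%) did not overlap against 15% of all. Those 5 were 2 for Kcnip2, 2 for Kcnj11 and 1 for Kcnj3. The comparisons share hearts and are not independent of each other, and probe sets of one gene are not independent either.

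Kcnj3 and Kcnip2 were set beside the atrial markers of the same heart. Kcnj3 had signals between 265 and 362 (median 310.4) in the 6 hearts with few atrial markers and between 347 and 564 (median 439.6) in the 6 with many, where only heart 7 lay below heart 5. Kcnip2 ran the other way, between 1609.6 and 2334 (median 1919) with few and between 1011 and 1925 (median 1567) with many atrial markers. Kcnd2 had medians of 318 and 371, and Kcnj11 of 1678 and 1664. Since the hearts fall into separate sets, no correlation over all 12 is given. The sum was mostly Nppa signal in the set with few atrial markers, so values within that set rest largely on Nppa. Within the 6 hearts with few atrial markers r with the log2 sum was -0.42 for Kcnj3 (exact permutation p = 0.408) and 0.40 for Kcnip2 (p = 0.454), and Spearman's rho was -0.49 (exact p = 0.356) and 0.31 (exact p = 0.564). Within the 6 with many it was 0.02 for Kcnj3 (exact permutation p = 0.983) and 0.04 for Kcnip2 (p = 0.946), with rho of 0.03 (exact p = 1.0) and -0.20 (exact p = 0.714). Over 8 genes and both sets of hearts, the lowest adjusted p was 0.689, for Kcna5 (r = -0.82, rho = -0.71, exact permutation p = 0.0431 before adjustment).

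With the log2 sum of the atrial markers as a covariate, added after the data were seen, the lines differed by -0.46 in Kcnj3 (limma adjusted p = 0.194) and by 0.46 in Kcnip2 (adjusted p = 0.466), and no channel probe set was called. Among the 6 hearts with few atrial markers alone (2 Tg R211A, 1 Tg S343D and 3 WT), Tg R211A differed from WT by 0.21 in Kcnip2 on the brightest probe set and by 0.47 on the second (adjusted p = 0.262), and by -0.13 in Kcnj3. In that fit the single Tg S343D heart is assumed to vary like the others. The remaining part of atrial tissue in the differences between genotypes was not tested.

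**Figure D3:**
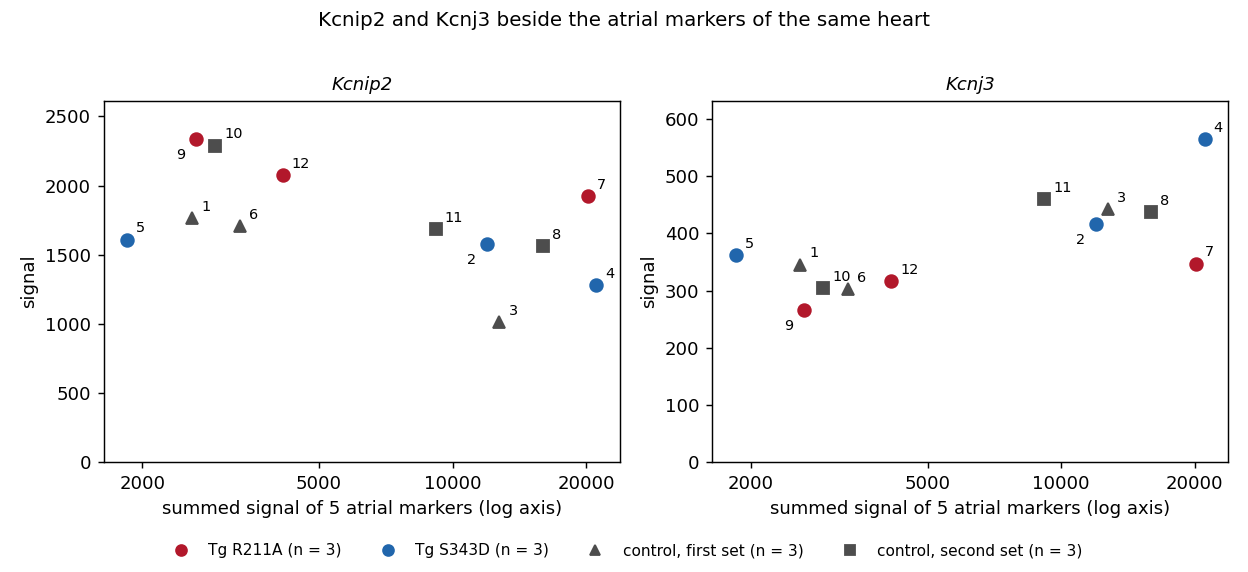
Signal of Kcnip2 and Kcnj3 (brightest probe set, linear axis from 0) against the summed signal of 5 atrial markers in the same heart (log axis), with heart numbers, colours for genotype and shapes for the 2 WT sets. The hearts fall into 6 with sums of 1848 to 4142 and 6 with sums of 9167 to 21056, and Kcnj3 was mostly higher, and Kcnip2 mostly lower, in the latter.

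Over the 28 pairs of channel genes with a tested brightest probe set, Kcnip2 and Kcnj3 had the lowest correlation over the 12 hearts, with r = -0.78 (permutation p = 0.00258, adjusted p = 0.0722) and Spearman's rho = -0.84 (permutation p = 0.00112, adjusted p = 0.0314). For every pair, permutations over the 12 hearts moved hearts freely across genotypes, number ranges and atrial marker sets. Their p values therefore cannot separate a shift shared by such groups from a relation within them. Without the 2 hearts farthest from the Kcnip2 median r was -0.83. It was -0.68 in hearts 1 to 6, -0.96 in hearts 7 to 12, and -0.68 after the genotype means were removed. In the 6 hearts with few atrial markers r was -0.77 (exact permutation p = 0.0792, rho = -0.66, exact p = 0.175) and in the 6 with many -0.55 (exact permutation p = 0.264, rho = -0.54, exact p = 0.297). The highest Pearson correlation was that of Kcnip2 and Kcnj11, with r = 0.60 (permutation p = 0.0383, adjusted p = 0.357) and rho = 0.40 (permutation p = 0.2), and it was -0.07 in hearts 7 to 12 and 0.41 without the 2 farthest hearts. By rank the highest pair was Kcnd2 and Kcnj3, with rho = 0.64 (permutation p = 0.0301, adjusted p = 0.369) and r = 0.46 (permutation p = 0.129, adjusted p = 0.516). Its r was 0.85 after the genotype means were removed and 0.61 without the 2 farthest hearts.

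For each gene the most alike of 11181 other genes, by r of log2 signal over 12 hearts, is given as a description with no test. For Kcnip2 it was Pabpc4 (r = 0.971), which encodes a poly(A)-binding protein. For Kcnj3 it was Mlf1 (r = 0.953), for Kcnh2 Fancl (0.893), for Kcnj11 Adcy6 (0.890), which encodes a cardiac adenylyl cyclase, and for Kcnd3 Thoc6 (0.887). For Kcna5 it was Ddit4 (0.883), for Kcnd2 Bpnt1 (0.877) and for Kcnq1 Sypl (0.838). The 12 hearts share genotypes, WT sets and atrial marker levels, and these values were picked as the highest of many.

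The other channel genes of the array were read from lists. Of 108 annotated genes in 7 lists, 47 were tested and 0 were called in any comparison, and at an unadjusted p under 0.05 there were 7 (14.9%) in Tg R211A against WT, 1 (2.1%) in Tg S343D against WT and 4 (8.5%) between the lines. The lists count 1 probe set a gene, whereas the shares over all tested probe sets, with several for some genes, were 7.51%, 3.98% and 8.45%. The list shares in the last pair of comparisons were below or close to these. The largest list held 61 other potassium channel genes, of which 18 were tested, with 13 below and 5 above 0 in Tg R211A and a median log2 difference of -0.07. Kcnmb4, which encodes an accessory subunit of calcium-activated channels, had 35.5 ± 12.6 (SD, n = 3) in Tg R211A and 56.2 ± 4.38 (SD, n = 6) in WT hearts (log2 difference -0.72, limma adjusted p = 0.261). Its Tg R211A mean lay below the filter limit of 43.5, so it entered the test through the other hearts, and the highest Tg R211A heart (49.87) all but met the lowest WT heart (49.88). The Tg R211A means of Kcnab1 (42.4) and Scn2b (41.8) also lay below that limit. Kcnv2, which encodes a silent subunit that modifies other channels, had 102 ± 13.2 (SD, n = 3) and 138 ± 22.4 (SD, n = 6), without overlap (-0.44, limma adjusted p = 0.494). Kcnn2, which encodes a small-conductance calcium-activated channel, differed by -0.26 (adjusted p = 0.641). In Tg S343D the smallest p values of this list were those of Kcnd1, the third Kv4 gene (0.52, adjusted p = 0.995), and Kcnj12, which encodes Kir2.2 (-0.21, adjusted p = 0.995). Of 11 other accessory genes 4 were tested, and those named by the rule were Kcne1, the partner of Kcnq1 (0.06 in Tg R211A), Kcne4 (-0.17) and Kcnab1 (-0.21), with limma adjusted p between 0.908 and 0.988.

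The partners that bind and place these channels held, among the 7 lists, the smallest p values in Tg R211A against WT, those of Abcc8 and Ank3. Abcc8 encodes SUR1, one of the sulfonylurea receptors that assemble with Kir6.2. It had 294 ± 41.6 (SD, n = 3) in Tg R211A, 221 ± 19.8 (SD, n = 3) in Tg S343D and 211.1 ± 28.2 (SD, n = 6) in WT hearts, and the Tg R211A hearts lay above all others. The log2 difference from WT was 0.48 (SE 0.12, limma adjusted p = 0.234) and from Tg S343D 0.41 (adjusted p = 0.452). Abcc9, which encodes the other receptor SUR2 and is also named after its values were seen, differed from WT by 0.10 (adjusted p = 0.849). Ank3, which encodes the scaffold ankyrin-G, had 305 ± 13.3 (SD, n = 3) in Tg R211A and 401 ± 52.8 (SD, n = 6) in WT hearts (-0.38, limma adjusted p = 0.252), and Dlg1, which encodes SAP97, 685 ± 34.0 (SD, n = 3) and 869 ± 142 (SD, n = 6) (-0.33, limma adjusted p = 0.569), both without overlap. In Tg S343D, Dpp6, which encodes a partner of Kv4 channels, and Fhl2 differed by -0.23 and -0.12 (adjusted p = 0.995 for both). Of this list 10 of 11 annotated genes were tested, 5 above and 5 below 0 in Tg R211A.

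Of 11 annotated sodium channel genes 3 were tested, and all 3 lay below 0 in Tg R211A with a median of -0.20. Scn4b, which encodes a beta subunit, had 205 ± 27.6 (SD, n = 3) in Tg R211A, 302 ± 38.5 (SD, n = 3) in Tg S343D and 311 ± 130.4 (SD, n = 6) in WT hearts. The lines did not overlap (-0.56, limma adjusted p = 0.603), and against WT, where 1 heart reached 563, the difference was -0.52 (adjusted p = 0.644). Scn7a differed from WT by -0.20 and Scn2b by -0.17 (adjusted p = 0.806 and 0.922). Hcn2, the single tested gene of the pacemaker channels, differed by 0.24 in Tg R211A and 0.31 in Tg S343D (adjusted p = 0.877 and 0.995). Of the sodium-potassium pump list, Atp1b1 differed by -0.20 (adjusted p = 0.679), Atp1b2 by 0.24 (0.860) and Fxyd1, which encodes phospholemman, by -0.02 (0.983). The 7 tested genes of the list of cardiac transcription factors had a median of 0.02 in both lines. Irx3 was at 0.14 and 0.20, and Nkx2-5 at -0.09 and -0.15, where the Tg S343D hearts lay below all WT hearts (limma adjusted p = 0.995).

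**Figure D4:**
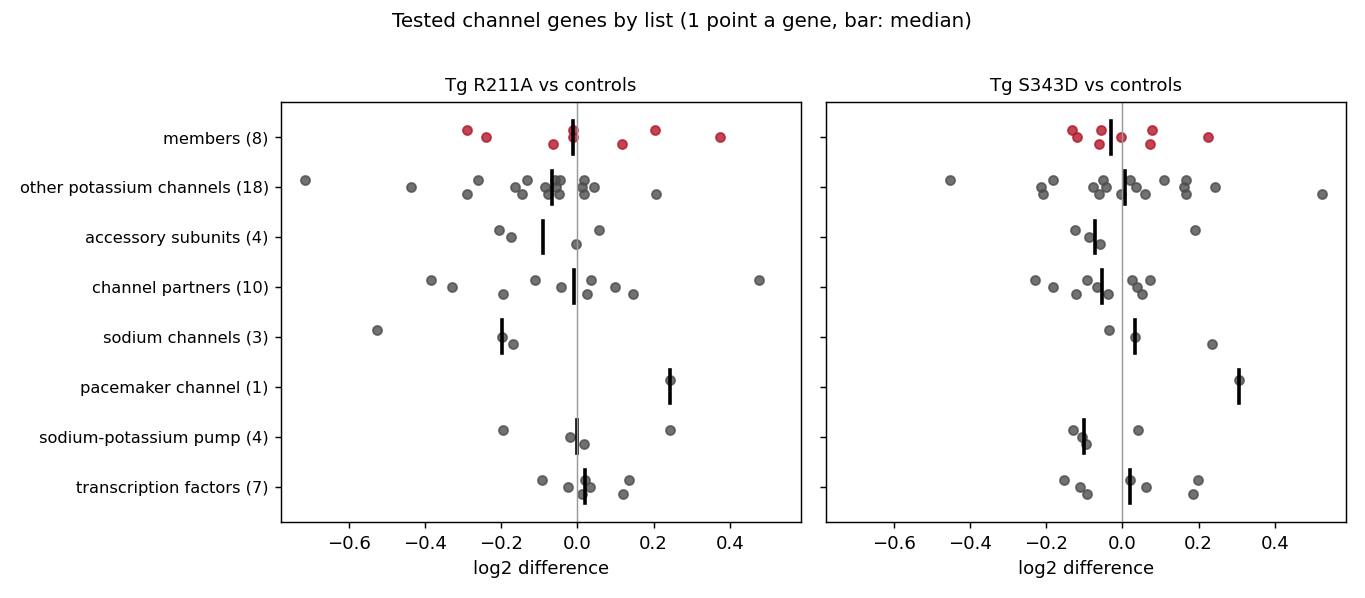
Log2 differences from WT of the 8 tested channel genes described here (named members) and of the 47 tested genes of 7 other lists (1 point a gene, numbers tested in brackets, bar for the median), in Tg R211A and Tg S343D hearts. No gene shown passed the test, and the list medians lay between -0.20 and 0.24 in Tg R211A and between -0.10 and 0.31 in Tg S343D.

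Markers of other cell types were counted in 10 lists, and of 38 tested genes 0 were called in any comparison. At an unadjusted p under 0.05 there were 2 (5.3%) in Tg R211A against WT, 3 (7.9%) in Tg S343D against WT and 1 (2.6%) between the lines, beside 7.51%, 3.98% and 8.45% of all tested probe sets. Neuron and glia markers summed to 173 to 255 in Tg R211A, 215 to 237 in Tg S343D and 193 to 249 in WT hearts. Conduction system markers summed to 229 to 269, 222 to 346 and 236 to 323 in the same order.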

How the data were processed

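Heart RNA of 12 mice was measured on 1 array each. The authors deposited 1 table of MAS5 signal intensity values for 45101 features on a linear scale. Each array had been scaled, and its mean after trimming both ends was 149. Sources used here name neither a MAS5 version nor a scaling target, detection calls were not used here, and scaling to a common mean hides any change in total RNA. The 64 array controls were left out, log2 was taken with nothing added, and the 22519 of 45037 probe sets at or above the median of mean log2 signal (5.44) were tested.

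Genes came from the annotation of the platform, in which 34945 probe sets name 1 gene, 932 more than 1 and 9160 no gene. limma 3.58.1 in R 4.3.3 was run with 3 genotype groups and empirical Bayes moderation with a trend, two-sided. Exact permutation tests had 84 splits for 3 hearts against 6 and 20 for 3 against 3. The procedure was tested on simulated data. Nothing says that a number in a title pairs hearts. Figures were drawn with matplotlib 3.10.9, and permutations run with scipy 1.17.1, in Python 3.11.15.

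The members and lists were chosen with earlier results of these data known. The rule for named genes took every member probe set, Ilk, from each channel list the 3 genes of smallest p in Tg R211A against WT and 2 in each other comparison, the atrial markers, and the gene most alike to each member. Kcnmb4 stands among the pore-forming genes because the list was drawn by symbol, and 3 noncoding genes whose symbols start with Kcn were left out. Some members of the lists were not analysed here. The cell type lists were cardiomyocyte, ventricular, atrial, conduction system, neuron and glia, fibroblast, endothelial, smooth muscle and pericyte, macrophage and red cell. Alternatives changed the scaling, the offset, the filter, the prior variance, the weights of arrays, the groups fitted, the WT set, the block, the threshold, the probe set or the test, or left out each heart in turn. The atrial covariate and the 6 hearts with few atrial markers were added after the data were seen. Comparisons by MI were left out.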

Additional observations from a re-analysis of the deposited data

Results flagged for a closer look

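In WT hearts, 1 heart stood far from the other 5 on 2 of 17 channel probe sets examined, and in both cases it was heart 3. For Kcnip2 (1425870_a_at) its signal was 441.1 where the others lay between 862 and 1056. For Kcnj11 (1450515_at) it was 301.8 where the others lay between 389 and 451. The gap to the nearest heart took 0.767 and 0.631 of the whole range, above the critical value of 0.625 for 6 samples. Chance gives this in about 1 of 20 groups. Heart 3 had a summed atrial marker signal of 12745, and WT hearts 8 and 11, with 15952 and 9167, were not low on these probe sets. Whether the atrial content has a part in these values was not tested.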

How the results depend on the processing

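Across 27 differences (9 genes in 3 comparisons) and 773 alternatives, no brightest probe set of a channel gene was called, and the lowest adjusted p was 0.174, for Kcnj3 between the lines in the fit with 6 pairs. The sign turned in 55 of the 773, in 19 of the 27 differences, and 12 of the 55 came from another probe set of the gene. With each heart left out in turn, the number of channel probe sets called stayed at 0 in both comparisons with WT and ranged from 0 to 1 between the lines, the 1 being Kcnip2 (1425870_a_at) without WT heart 3 (replicate 2). For all probe sets, 46 were called in Tg R211A against WT, with 19 against the second WT set alone, 23 in the 6 hearts with few atrial markers and 14 with probe sets averaged by gene. The 1 call in Tg S343D against WT became 2 against the second WT set or by gene and 5 in the 6 hearts. The 36 calls between the lines became 3 with the range of heart numbers as a block, 1 with 6 pairs, 5 with no trend in the prior variance, 16 with only the 2 lines in the fit, 15 in the 6 hearts, 10 by gene and 55 with array weights, and between 10 and 49 without each heart in turn. The cause was not tested. The numbers in the titles were not taken as pairing in the main fit, as no label says that they pair hearts. They were used only in alternatives, among them the fit with 6 pairs. Deviations from group means correlated at 0.0853 to 0.167 over the 6 possible pairs, and 1 of the 6 was under 0.1. No values for other pairs of hearts stand beside these, so they cannot tell whether the hearts were paired. With the title number as a replicate block the channel calls stayed at 0 in all 3 comparisons, with 52, 1 and 38 calls over all probe sets, and with 6 pairs at 0, with 47, 1 and 1. An MI comparison was not run. The number of hearts and signals below the filter (5 of 21 probe sets, with that of Kcnj2) limit what could be detected.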
